A study of Mus musculus with 4 samples.

Results

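The Ndst4 nuclei are excitatory nuclei of the mouse cerebral cortex that carried at least 2 unique molecular identifiers (UMIs, 1 per captured RNA molecule) of Ndst4, at least 3 of Dpyd and at least 3 of Nwd2, Lmo3 and Phactr2 together, with 0 of Ccbe1 and at most 2 of Foxp2. A nucleus was counted as excitatory when it held at least 1 UMI of Slc17a7, the vesicular glutamate transporter of cortical excitatory neurons, and 0 of Gad1 and Gad2, the enzymes that make GABA. The rule found 414 nuclei among 10968 excitatory nuclei and 35694 nuclei in all. Because raw UMIs of these 10 genes chose the nuclei, the levels of those genes are given as a description and were not tested.

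The libraries came from male C57BL/6J mice at postnatal day 100, 2 hemizygous for a deletion of exons 5 to 7 of Slc6a8 in all tissues (CrT-/y, here CrT-KO) and 2 wild-type littermates (CrT+/y, here control). Slc6a8 encodes the creatine transporter CrT, so the comparison asks how the excitatory nuclei that met the rule differ when creatine uptake is lost. Neither group received a treatment, and 1 library was made from the right cortex of each animal. The smallest exact p that a comparison of 2 animals with 2 can give is 0.333.

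The control libraries gave 85 and 115 Ndst4 nuclei and the CrT-KO libraries 125 and 89. Their summed depth was 970436, 1320030, 1555765 and 990909 UMIs in that order, and the median nucleus held between 10059 and 11760 UMIs in each library, against 7740.5 to 9215 in the other excitatory nuclei. A rule that asks for several UMIs of scarce genes favours deep nuclei. Scrublet marked 12 of the 414 nuclei as doublets, 2.9%, against 3.72% of the other excitatory nuclei. Pairs of libraries shared 12 to 19 barcodes over all nuclei and 0 among the Ndst4 nuclei.

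Ndst4 is 1 of the N-deacetylase/N-sulfotransferases, the enzymes that start the sulfation of heparan sulfate, the sugar chain that lets cell-surface and matrix proteoglycans bind growth factors and guidance cues. Dpyd is dihydropyrimidine dehydrogenase, the first enzyme of pyrimidine breakdown, Lmo3 is a LIM-only transcription cofactor, Phactr2 binds actin and protein phosphatase 1, and Tafa2 is a small secreted protein of the brain. Excitatory neurons of the upper cortical layers are usually recognised by the transcription factor genes Cux1 and Cux2 and by Rasgrf2, an exchange factor for Ras. Creatine and its kinases buffer ATP in neurons.

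Ndst4 lies on chromosome 3 at 125404076-125728899 on the forward strand of GRCm38, Dpyd on the same chromosome at 118562129-119432924 on the forward strand, and Tafa2 on chromosome 10 at 123263996-123741204, also forward. Levels below are UMIs summed over the nuclei of a library and given as CPM, counts scaled to a fixed total of UMIs of those nuclei, and they compare 1 gene between populations, not genes with each other. Ndst4 stood at 715 and 617 CPM in the control libraries and at 681 and 597 CPM in the CrT-KO libraries, against 27.6 to 43.3 CPM in the other excitatory nuclei. The member nuclei held between 2 and 48 Ndst4 UMIs, with a median of 5. Dpyd had a mean level of 880 CPM ± 40 (SD, n = 4) against 175 CPM ± 17 in the other excitatory nuclei.

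Tafa2, which the rule did not use, was detected in 95.9% of the Ndst4 nuclei. Its level was 2695, 3145, 2483 and 2953 CPM in the 2 control and 2 CrT-KO libraries, and 835 to 1027 CPM in the other excitatory nuclei. The same gene reached 1729 CPM ± 214 (SD, n = 4) in nuclei with at least 3 UMIs of Rorb, a layer 4 marker, and 160 CPM ± 30.5 in nuclei with at least 4 UMIs of Foxp2, a layer 6 marker. At the edge of the rule, 93 members with exactly 2 Ndst4 UMIs had 3400 CPM of Tafa2 and 309.6 CPM of the zinc-finger gene Zfp536. The 148 nuclei that failed the rule by 1 Ndst4 UMI alone had 2723 CPM of Tafa2 and 199.7 CPM of Zfp536, and the 693 that had none of Ndst4 but met the rest had 1706 and 114 CPM, so the rule cuts a graded range. The edges on Dpyd (50 members with 3 UMIs, 39 nuclei with 2) and on Nwd2, Lmo3 and Phactr2 (28 with 3, 18 with 2) held fewer nuclei.

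The nuclei did not carry the full set of upper-layer markers. Cux2 was at 121, 98.5, 129 and 87.8 CPM across the 4 libraries, below the 165 CPM ± 15 (SD, n = 4) of the other excitatory nuclei in all 4, and below the 386 CPM ± 19 of 982 nuclei chosen by Ccbe1 and at least 1 UMI of Cux2 itself. Lamp5 was at 15.5, 19.7, 10.9 and 9.08 CPM against 21.5 CPM ± 4.6, and Cux1 at 259 CPM ± 23 against 282 CPM ± 13. Rasgrf2, Otof and Calb1 were above the other excitatory nuclei in all 4 libraries, Rasgrf2 with 263 CPM ± 38 against 179 CPM ± 11, and below the Ccbe1 nuclei. Over the 6 layer 2/3 markers outside the rule, 3 were higher and 3 lower in every library, and their summed level, 680 to 723 CPM, was below the 1376 to 1480 CPM of the Ccbe1 nuclei. The nuclei are therefore called by their leading gene and not by a layer.

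Markers of other layers gave values on both sides. Tle4, a corepressor of layer 6 corticothalamic neurons, had 52.4 CPM ± 5.2 (SD, n = 4) against 136 CPM ± 14 in the other excitatory nuclei, and Syt6 of the same neurons 1.04 CPM ± 0.90 against 30.4 CPM ± 3.2. Rorb reached 100 CPM ± 39 against 249 CPM ± 26. Bcl11b, a transcription factor of subcerebral projection neurons, was above the other excitatory nuclei in all 4 libraries, at 182 CPM ± 38 against 122 CPM ± 13, and Slco2a1 of the same list was above them too (summed level of that list 156 to 248 CPM against 127 to 157 CPM), while Fezf2 of the same neurons was at 0, 0, 1.93 and 1.01 CPM.

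Of 6 genes used as markers of piriform cortex and amygdala, 5 had at least 5 CPM. Of these, 4 were higher than in the other excitatory nuclei in all 4 libraries. The list summed to 629 to 749 CPM in the Ndst4 nuclei and 406 to 427 CPM in the other excitatory nuclei. Single populations differed, with 549 to 601 CPM in the Foxp2 nuclei, 506 to 571 CPM in the Ccbe1 nuclei and 158 to 192 CPM in the Rorb nuclei. Reln, a large secreted glycoprotein of the matrix, was at 232, 283, 262 and 155 CPM in the Ndst4 nuclei and at 49.1 to 56.0 CPM in the other excitatory nuclei. Tfap2d, a transcription factor, had 16.4 CPM ± 8.3 (SD, n = 4) against 4.78 CPM ± 0.64, and Meis2 415 CPM ± 37 against 310 CPM ± 9.5. Rspo2 went the other way, with 16.0 CPM ± 7.2 against 43.3 CPM ± 6.7. Zbtb20, listed with hippocampal genes, reached 352 CPM ± 107 against 143 CPM ± 15, and the other listed hippocampal genes did not stand above in all 4 libraries. Across the 9096 genes with at least 5 CPM, 14.6% were higher and 27.7% lower than in the other excitatory nuclei in all 4 libraries.

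**Figure D1:**
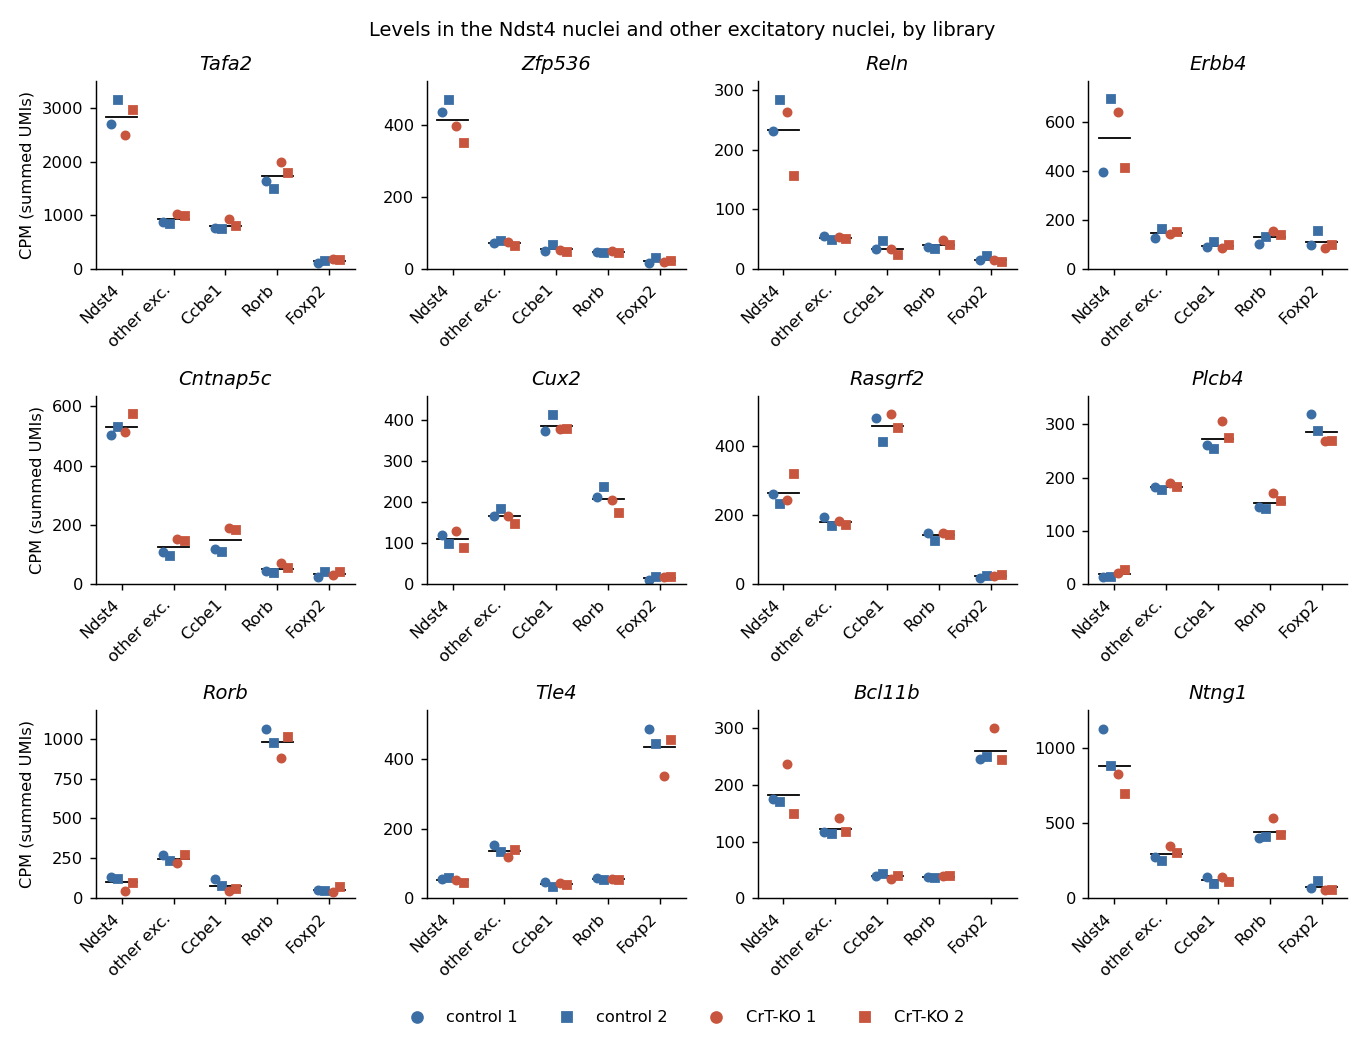
Level of 12 genes in CPM of summed UMIs (y axis, linear, from 0) in the Ndst4 nuclei, all other excitatory nuclei, and nuclei chosen by Ccbe1, Rorb or Foxp2 (x axis). Points are the 4 libraries and lines their means. Zfp536, Reln, Erbb4 and Cntnap5c are highest in the Ndst4 nuclei in each library, and Plcb4 is lowest there.

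Zfp536, a zinc-finger repressor of neuronal differentiation, had the highest ratio to the other excitatory nuclei among genes outside the rule with at least 20 CPM in each library. It was at 437, 470, 396 and 350 CPM against 64.2 to 78.7 CPM. Dchs2, a large cadherin, followed with 58.0 CPM ± 11 (SD, n = 4) against 9.87 CPM ± 1.0, and Ptpro, a receptor tyrosine phosphatase, had 157 CPM ± 19 against 34.2 CPM ± 2.9. Erbb4, the neuregulin receptor better known from inhibitory neurons, was at 398, 693, 643 and 414 CPM against 146 CPM ± 15. Cntnap5c, a contactin-associated protein, had 530 CPM ± 31 against 125 CPM ± 28. Others among the 20 leading genes were Lonrf3, Arhgap6, Adamts6, Filip1, Tox3, Ptpn14, Abi3bp, Zfp618, Glis3, Adam12, Tiam1, Tmem132e and Npas3.

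Markers of other cell types were compared as whole lists. Inhibitory markers summed to 434 to 712 CPM against 204 to 240 CPM in the other excitatory nuclei, mostly through Erbb4, and Pvalb was at 0. Astrocyte markers summed to 5.1 to 10.1 CPM with Gjb6 at 0, microglia markers to 32.6 to 54.6 CPM, and endothelial markers to at most 1.5 CPM with Flt1 and Cldn5 at 0.

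Detection was also compared at equal depth by thinning, in the same nuclei that the rule had chosen at full depth. With every nucleus thinned to 5000 UMIs, Zfp536 was detected in 70.0% of the Ndst4 nuclei and in 14.04% of the other excitatory nuclei. Plcb4, a phospholipase C, went the other way, with 5.15% against 46.4%. Before thinning, 81.2% to 91.2% of the Ndst4 nuclei of a library held Zfp536 and 9.41% to 16.8% held Plcb4. Thinning left out 2, 2, 0 and 4 shallower Ndst4 nuclei of the 4 libraries and 236 to 352 of the other excitatory nuclei.

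Among 19 heparan sulfate enzymes with at least 5 CPM, 6 were higher and 8 lower than in the other excitatory nuclei in all 4 libraries. Ndst3, a close relative of Ndst4, was at 361 CPM ± 11 (SD, n = 4) against 201 CPM ± 11, whereas Ndst1 had 19.3 CPM ± 7.7 against 27.4 CPM ± 2.8. Hs3st1, a 3-O-sulfotransferase, had 39.5 CPM ± 6.8 against 13.9 CPM ± 2.2, and Sulf2, which removes sulfate from finished chains, 13.96 CPM ± 2.9 against 61.4 CPM ± 5.5. Of the glypicans, which carry these chains on the cell surface, Gpc4 was at 44.4 CPM ± 10 against 14.7 CPM ± 1.1 and Gpc6 at 188 CPM ± 21 against 666 CPM ± 50. The 4 Tafa genes with enough signal were all higher in all 4 libraries, Tafa1 with 4758 CPM ± 833 against 1682 CPM ± 152 and Tafa5 with 246 CPM ± 16 against 144 CPM ± 3.8.

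Genes that shape axons and synapses gave values on both sides. Of 32 axon guidance genes, 15 were higher and 10 lower in all 4 libraries. Ntng1, a netrin-G that binds synaptic partners, was at 1127, 881, 826 and 693 CPM against 252 to 348 CPM, and Ephb2, an ephrin receptor, at 15.8 CPM ± 7.1 (SD, n = 4) against 84.2 CPM ± 4.5. The kainate receptor subunit Grik1 had 381 CPM ± 84 against 130 CPM ± 7.7, while Grik3 and Grik4 were lower by 1.42 and 2.07 on the log2 scale in the ratio of mean CPM.

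The rule gathered nuclei of more than 1 kind. When all 10968 excitatory nuclei were clustered without the 10 rule genes and Tafa2, 42.5% of the members fell in 1 of 27 clusters (cluster A, 176 members), 16.4% in cluster B (68), 15.5% in cluster C (64) and 12.3% in cluster D (51), and the remaining 55 were spread over other clusters. The members made up 34.9%, 33.7%, 28.7% and 9.39% of all nuclei of these 4 clusters, so most nuclei of each failed the rule. In cluster A, the members had 711 CPM of Ndst4 and 3731 CPM of Tafa2, and the 329 other nuclei of the cluster 330.1 and 4178 CPM.

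Each cluster was led by its own genes, which the clustering used, so they are given without a test. Members in cluster A carried more Rasgrf2, 393 CPM against 166 CPM in the other members, with the potassium channel gene Kcnh5 at 348 against 151 CPM. Cluster B was led by Galntl6, a relative of the enzymes that attach N-acetylgalactosamine to proteins, at 5018 CPM against 271.5 CPM, together with the BMP receptor Bmpr1b at 597 against 40.0 CPM. Tafa2 was low there, with 697 CPM. Cluster C was led by Reln at 1284 against 52.7 CPM, with Il1rapl2, a synaptic relative of interleukin-1 receptors, at 1406 against 161 CPM. Cluster D was led by Gm11639 at 100.3 against 7.88 CPM and Lypd1 at 83.3 against 11.7 CPM, and Otof, a calcium sensor of vesicle release, was among its leading genes at 77.2 against 14.1 CPM. Reln was detected in 119 of the 414 nuclei, 28.7%, and in 92.2% of those in cluster C.

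**Figure D2:**
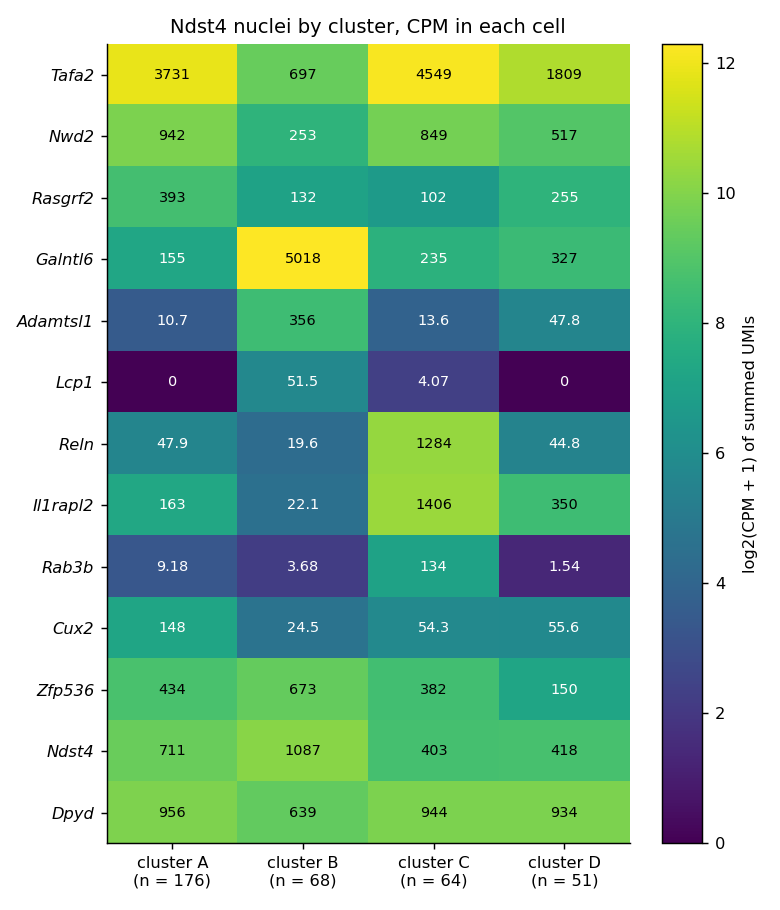
Level of genes in the members of clusters A to D (columns, with the number of members), as log2 of CPM + 1 in colour and as CPM in print. Reln, Il1rapl2 and Rab3b peak in cluster C, Galntl6, Adamtsl1 and Lcp1 in cluster B, and Tafa2 is lowest in cluster B.

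The share of Ndst4 nuclei differed between genotypes by less than the spread between animals. They were 3.41% (95% exact binomial interval 2.73% to 4.20%) and 4.06% (3.37% to 4.86%) of the excitatory nuclei in the control libraries, and 4.26% (3.56% to 5.06%) and 3.28% (2.64% to 4.02%) in the CrT-KO libraries. The means were 3.74% ± 0.46 (SD, n = 2) and 3.77% ± 0.69, a difference of 0.033 percentage points with a two-sided exact permutation p of 1. Without the first control library the difference was -0.29 points, and without the first CrT-KO library it was -0.46 points. The intervals cover counting error only. Cluster A took 35.3% and 44.3% of the members in the control libraries and 40.0% and 50.6% in the CrT-KO libraries, and cluster C 20% and 17.4% against 12.8% and 12.4%. The control and CrT-KO shares of cluster C did not overlap, nor did those of cluster B, at 15.3% and 12.2% against 20% and 18.0%, each with an exact permutation p of 0.333. Counted over all their nuclei, members or not, the shares of both clusters overlapped between genotypes. Cluster C held 1.81% and 2.19% of excitatory nuclei in control against 2.18% and 1.92% in CrT-KO. Cluster B held 1.97% and 1.17% against 2.49% and 1.73%. On this count the CrT-KO mean lay above the control mean by 0.54 percentage points for cluster B and 0.050 for cluster C. Over all its nuclei cluster A held 4.74% and 4.77% in control against 4.57% and 4.35% in CrT-KO. Cluster D held 5.50% and 5.23% against 4.84% and 4.28%. These shares of A and D did not overlap, each with an exact permutation p of 0.333. The cause of the gaps, among the members or over all nuclei, was not tested.

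**Figure D3:**
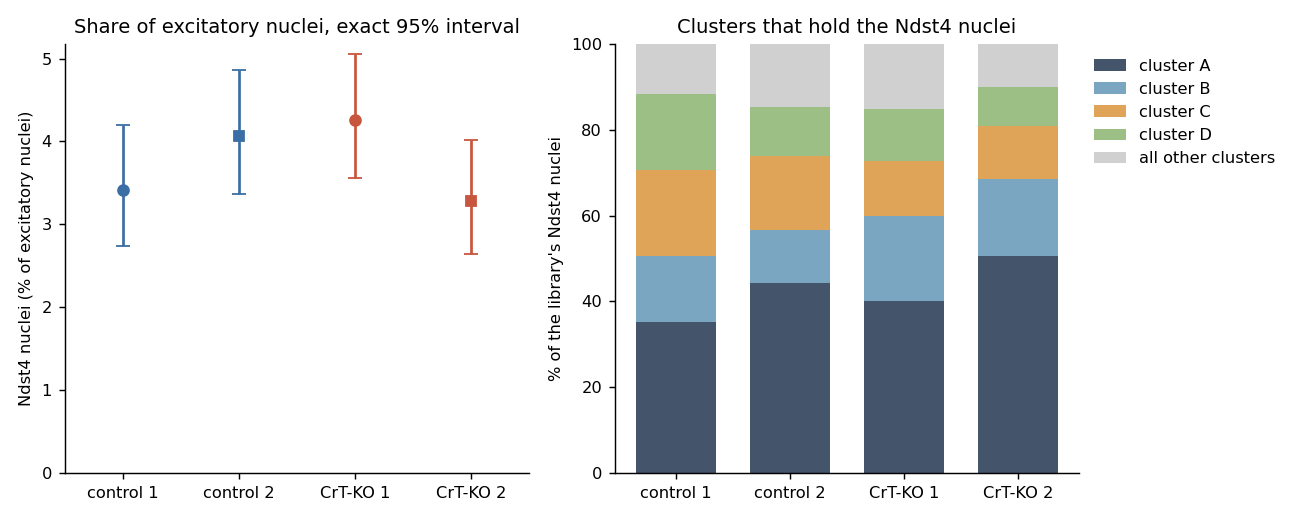
Left, Ndst4 nuclei as a percentage of the excitatory nuclei of each library with the exact 95% binomial interval. Right, the percentage of each library's Ndst4 nuclei in clusters A to D and in all other clusters. The intervals of all 4 libraries overlap between 3.56% and 4.02%, and cluster C takes a smaller percentage in both CrT-KO libraries.

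In the genotype comparison, the targeted gene was scarce. In the Ndst4 nuclei, Slc6a8 (chromosome X, 73673150-73682502, forward strand) was counted 5 and 12 times in control and 1 and 0 times in CrT-KO. The control level was 18.9 times the CrT-KO level, with a 95% counting interval of 2.96 to 790 times. At so few UMIs the gene did not enter the main test. Without the filter on low counts, edgeR gave a log2 change of -3.90 ± 0.99 (SE, adjusted p = 0.0427). With the filter and without the second CrT-KO library it was -3.34 (adjusted p = 0.726). In the other excitatory nuclei the sums were 304 UMIs in control and 83 in CrT-KO, a log2 change of -1.90 ± 0.21 (adjusted p = 0.011). The position of a UMI within the gene is not given, and UMIs from outside the deleted exons count too, so these values are no direct check of the deletion.

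The other creatine genes did not pass the test or were too low for it. Ckb, the brain creatine kinase, had 25.8 and 22.0 CPM in control and 21.2 and 8.07 CPM in CrT-KO (log2 change -0.57 ± 0.35, adjusted p = 0.83). The mitochondrial kinase Ckmt1 had 5.15 and 17.4 CPM against 18.0 and 9.08 CPM (0.25 ± 0.44, adjusted p = 0.98). Gatm and Gamt, which make creatine, had at most 6 UMIs in a library. Fewer nuclei of one kind among the members and less RNA per nucleus cannot be told apart in these sums.

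Of 7468 genes tested, 32 differed between genotypes in the Ndst4 nuclei at an adjusted p below 0.1 (edgeR's quasi-likelihood test on summed UMIs, Benjamini-Hochberg), 0.428% of those tested. Of these, 12 (0.161%) rose and 20 (0.268%) fell in CrT-KO, and 503 genes had an unadjusted p below 0.05. In 31 of the 32, the CrT-KO libraries both lay on 1 side of both controls, as they did for 35.1% of all tested genes. DESeq2 called 3 of the same genes, Il1rapl2, St18 and Ankfn1, and the fit on doublet-free nuclei 13. In the other excitatory nuclei, 15 of 13542 genes passed the same threshold (0.111%), of which 6 rose (0.0443%) and 9 fell (0.0665%), and 1 gene, Arhgap26, was called in both populations.

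**Figure D4:**
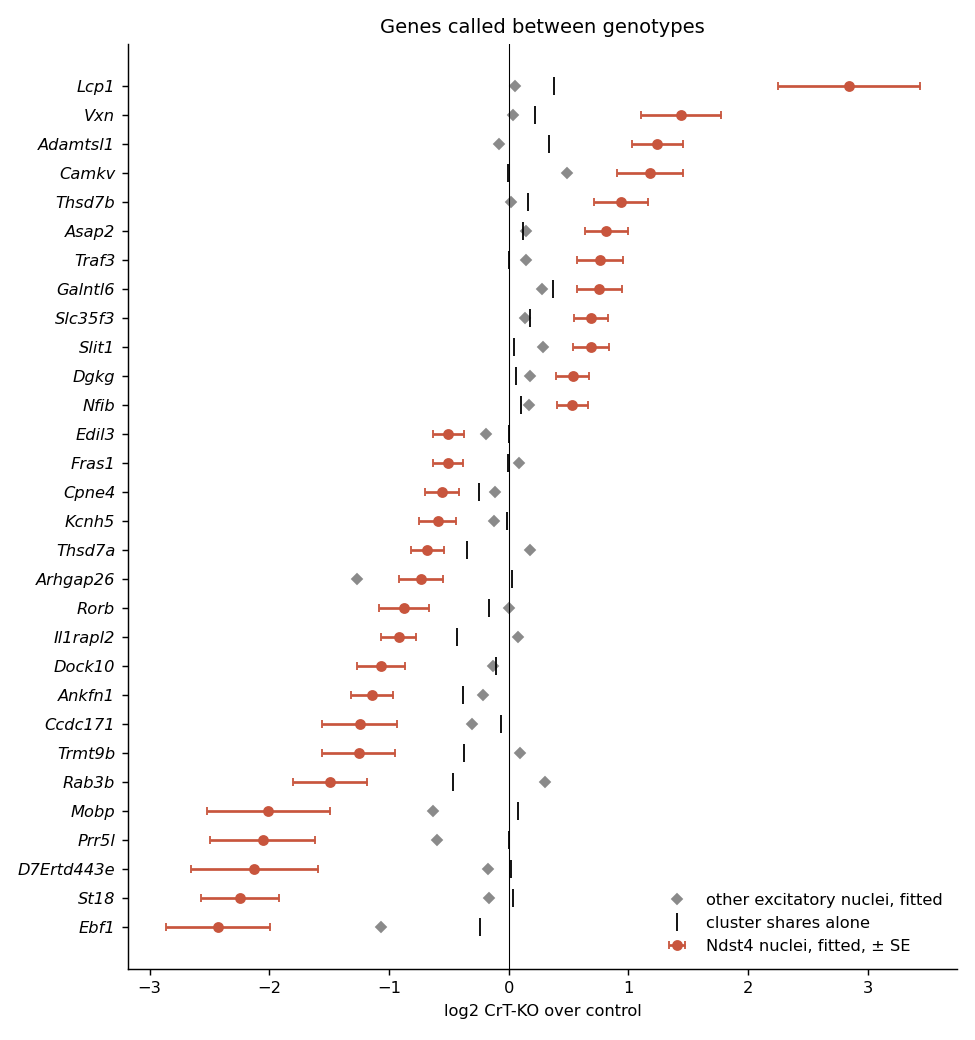
Log2 change of CrT-KO over control (x axis) for genes called in the Ndst4 nuclei (y axis), with the standard error, beside the change fitted in the other excitatory nuclei and the change that the clusters' shares alone would give. In the Ndst4 nuclei Lcp1 rose most and Ebf1 fell most, and the changes given by cluster shares lie between -0.47 and 0.38.

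Il1rapl2 (chromosome X, 137570608-138846946, forward strand) had 542 and 417 CPM in control and 215 and 289 CPM in CrT-KO, a log2 change of -0.92 ± 0.14 (edgeR, adjusted p = 0.00016). The CrT-KO libraries were both lower than both controls. With a looser rule for the members its change was -0.33 (adjusted p = 0.671). The other excitatory nuclei had 622 to 663 CPM in all 4 libraries. Within the members of cluster C, where most of its UMIs lay, it was at 2095 and 1452 CPM in control and at 863 and 1148 CPM in CrT-KO, and within cluster A at 160 and 213 against 97.9 and 181. Cluster D was mixed, at 435 and 343 against 198 and 498 CPM, and the members of all other clusters went the other way, at 8.41 and 91.8 against 196 and 247 CPM. With each cluster held at its pooled level, the shares of all clusters together would alone give a log2 change of -0.43. Over all 505 nuclei of cluster A, members or not, the fitted change was 0.037 (adjusted p = 0.99).

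Ankfn1, Rab3b, Thsd7a and Trmt9b fell too, and each was higher in cluster C than in the other members. Ankfn1 had 151 and 127 CPM in control and 59.1 and 65.6 CPM in CrT-KO (log2 change -1.14 ± 0.18, adjusted p = 0.00016). Rab3b, a GTPase of synaptic vesicles, had 35.0 and 43.9 CPM against 15.4 and 12.1 CPM (-1.49 ± 0.31). Thsd7a, a thrombospondin-repeat protein, had 460 and 348 CPM against 249 and 247 CPM (-0.68 ± 0.14), and Trmt9b, a tRNA methyltransferase relative, 45.3 and 31.8 CPM against 15.4 and 16.1 CPM (-1.25 ± 0.31). The Rab3b call ended without the second control library (-1.27, adjusted p = 0.175), and the Thsd7a and Trmt9b calls without the first library of either genotype (adjusted p from 0.116 to 0.489). With the looser rule the changes were -0.60 for Rab3b (adjusted p = 0.558), -0.31 for Thsd7a (adjusted p = 0.547) and -0.92 for Trmt9b (adjusted p = 0.144). In 9 of the 32 genes, among them all 4 of these and Il1rapl2, the clusters' shares alone would give at least 25% of the observed log2 change, and their part in the result was not tested.

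Among the genes that rose, Adamtsl1, a secreted matrix protein, had 29.9 and 59.8 CPM in control and 102 and 119 CPM in CrT-KO (log2 change 1.24 ± 0.21, edgeR, adjusted p = 0.00080). In the other excitatory nuclei it was at 67.1 to 89.0 CPM. Its gene body overlaps Sh3gl2 on the same strand, and that of Il1rapl2 overlaps Tex13a on the other strand, so reads there may be shared. Within cluster B, its main source, it had 55.2 and 364 CPM in control and 381 and 546 CPM in CrT-KO, so 1 control library was close to the CrT-KO values. Lcp1, an actin-bundling protein, had the largest rise, 2.84 ± 0.59, from 1 and 4 UMIs in control to 24 and 17 in CrT-KO. Its UMIs came from 8 and 4 nuclei of the CrT-KO libraries, with up to 12 in 1 nucleus, and 42 of the 46 lay in cluster B. Its call ended without any 1 of the libraries other than the second control (adjusted p from 0.149 to 0.347). The clusters' shares alone would give a log2 change of 0.34 for Adamtsl1, 0.38 for Lcp1 and 0.37 for Galntl6. Adamtsl1 and Galntl6 are among the 9 genes where this is at least 25% of the observed change. The part of the shares in these rises was not tested. Galntl6 had 416 and 1069 CPM in control and 1537 and 986 CPM in CrT-KO (0.76 ± 0.19, adjusted p = 0.07), and is the called gene whose libraries overlapped. Without the first control library its change was 0.23 (adjusted p = 0.97) and without the first CrT-KO library 0.42 (adjusted p = 0.58).

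In the other genes that rose, the clusters' shares alone would give a log2 change of at most 0.22. For Slc35f3 they would give 0.18, which is at least 25% of its observed change, and their part in its rise was not tested. Camkv, a kinase-like protein of vesicles and spines, had 24.7 and 19.7 CPM in control and 56.6 and 40.4 CPM in CrT-KO (log2 change 1.18 ± 0.28). Slit1, the secreted ligand of Robo receptors that steers axons, had 120 and 110 CPM against 193 and 171 CPM (0.69 ± 0.15, edgeR, adjusted p = 0.026). Slc35f3, linked to thiamine transport, had 185 and 196 CPM against 328 and 281 CPM (0.69 ± 0.14), and Dgkg, a diacylglycerol kinase, 245 and 234 CPM against 332 and 356 CPM (0.53 ± 0.14). Asap2, which acts on ARF GTPases, rose by 0.82 ± 0.18, Traf3, an adaptor of TNF receptors, by 0.76 ± 0.19, and the transcription factor Nfib by 0.53 ± 0.13. Vxn (1.44 ± 0.33) and Thsd7b (0.94 ± 0.22) complete the list. The Slit1 call ended without the second control library (0.65, adjusted p = 0.169) or the first CrT-KO library (0.61, adjusted p = 0.38), and each of the other calls of this paragraph ended without at least 1 library, Thsd7b without the second CrT-KO library alone (0.42, adjusted p = 0.934).

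**Figure D5:**
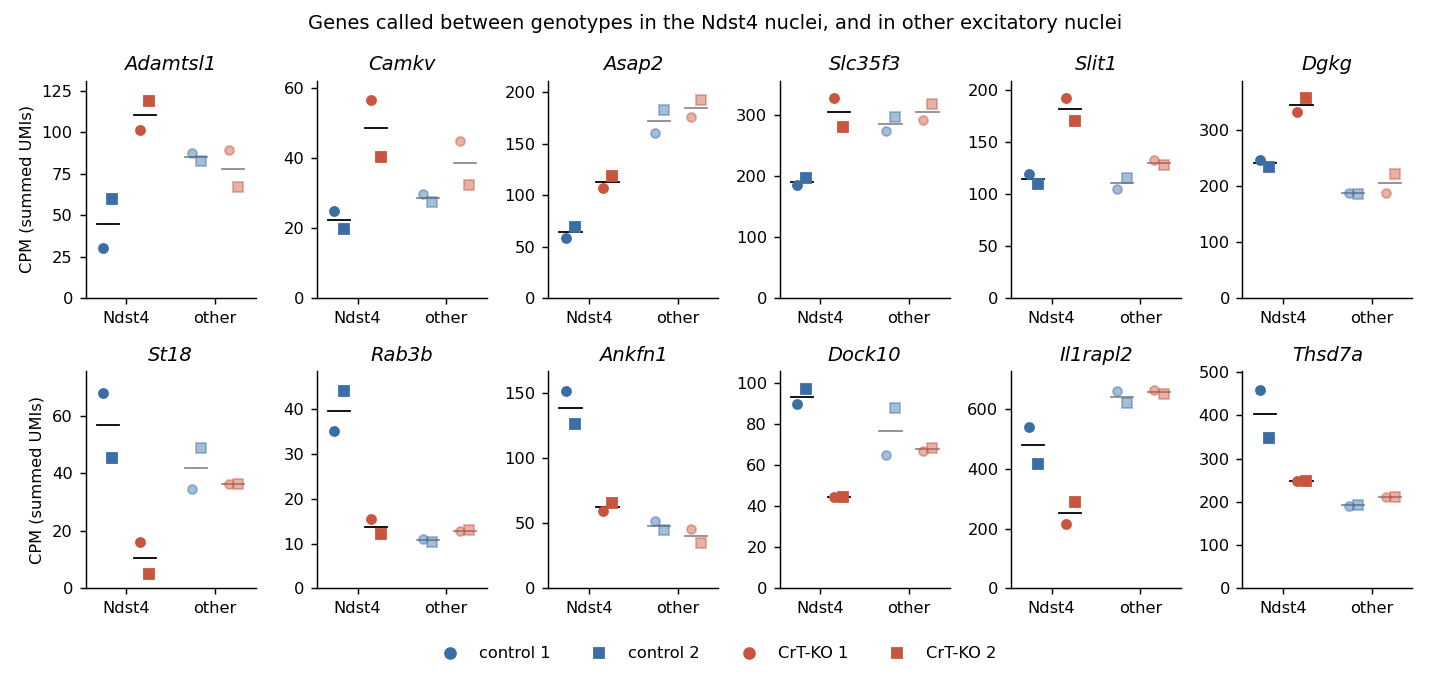
Level in CPM (y axis, linear, from 0) of 6 genes that rose and 6 that fell in CrT-KO, in the Ndst4 nuclei (full colour) and in the other excitatory nuclei (pale), by library, with group means as lines. In the Ndst4 nuclei the libraries of the 2 genotypes do not overlap for these 12 genes.

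Genes of oligodendrocytes, the cells that make myelin, were among the falls. St18, a zinc-finger factor also found in oligodendrocytes, had 68.0 and 45.5 CPM in control and 16.1 and 5.05 CPM in CrT-KO (log2 change -2.25 ± 0.32), and the myelin gene Mobp fell by 2.01 ± 0.51. Prr5l (-2.05 ± 0.44) and D7Ertd443e (-2.13 ± 0.53), which are no markers of that list, fell as well. The calls of Mobp, Prr5l and D7Ertd443e each ended without at least 1 library, Prr5l without the second CrT-KO library alone (-1.34, adjusted p = 0.115). Of the 5 oligodendrocyte markers, 4 were tested and 3 called, all lower, with a median log2 change of -1.67 against 0.0049 over all tested genes. Their summed level ranged from 188 to 241 CPM in control and from 102 to 136 CPM in CrT-KO, against 171 to 217 CPM in the other excitatory nuclei. UMIs of Mog, Mobp and St18 lay mostly in few nuclei, since 5, 9, 5 and 0 members of the 4 libraries held at least 2 of them together, 1 member 55. Mbp, the most abundant marker of the list, was spread more widely, with 56, 86, 132 and 86 UMIs outside these nuclei of 104, 125, 150 and 86 in all. Without these 19 nuclei, St18 had 4, 5, 7 and 5 UMIs and, like Mobp, Prr5l and D7Ertd443e, was too low to test. In all, 16 genes were then called. That filter uses Mobp and St18 themselves.

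Ebf1, a transcription factor, showed the largest fall, -2.43 ± 0.44, from 37 and 27 UMIs in control to 6 and 7 in CrT-KO. Of the 64 control UMIs, 50 came from 2 nuclei, and without the first control library its change was -1.99 (adjusted p = 0.114). Dock10, an activator of small GTPases, had 89.7 and 97.0 CPM in control and 44.4 and 44.4 CPM in CrT-KO (log2 change -1.06 ± 0.20, edgeR, adjusted p = 0.0036), and -0.66 (adjusted p = 0.555) without the 19 nuclei. Rorb fell from 136 and 120 CPM to 45.6 and 98.9 CPM (-0.87 ± 0.21, adjusted p = 0.0444), and without the first CrT-KO library its change was -0.33 (adjusted p = 0.986). Kcnh5 (-0.59 ± 0.16), Cpne4 (-0.56 ± 0.14), Fras1 (-0.51 ± 0.13), Edil3 (-0.50 ± 0.13) and Ccdc171 (-1.24 ± 0.31) fell with adjusted p-values of 0.0700 to 0.0904, and each of these calls ended without at least 1 library. For Cpne4 the clusters' shares alone would give a log2 change of -0.25, at least 25% of its observed change, and their part was not tested. Arhgap26 was counted here under the second of 2 identifiers with overlapping gene bodies. It fell by 0.73 ± 0.18 in the Ndst4 nuclei and by 1.27 in the other excitatory nuclei. Reads of the overlapping entries cannot be told apart.

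In functional lists, few members were called, beside 0.428% of all genes. Of 30 axon guidance genes tested, 1 was called (Slit1), 13 had an unadjusted p below 0.05, beside 503 of all 7468 tested genes, and the median log2 change was -0.14. Their libraries did not overlap in 6 genes that were higher and 14 that were lower, against 16.2% and 18.9% of all genes. Sema6a had 203 and 167 CPM in control and 144 and 98.9 CPM in CrT-KO (adjusted p = 0.16), and Sema3a 90.7 and 100 CPM against 75.2 and 46.4 CPM (adjusted p = 0.32). Slit2 had 282 and 258 CPM against 424 and 295 CPM (adjusted p = 0.31). Among 33 synaptic organizers, 1 was called (Il1rapl2) and the median was 0.0097. Lrrtm4, a postsynaptic partner of neurexins, had 7124 and 6632 CPM against 9661 and 8327 CPM (0.40 ± 0.11, adjusted p = 0.12).

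Of 13 ionotropic glutamate receptor subunits tested, none was called by edgeR, 5 had an unadjusted p below 0.05, and 12 had a positive log2 change, beside 3797 of all 7468 tested genes, with a median of 0.11. The exception was Grik1, with 489 and 388 CPM in control and 360 and 287 CPM in CrT-KO (-0.41 ± 0.14, adjusted p = 0.35). Among 27 potassium channels 1 was called (Kcnh5), and among 17 heparan sulfate enzymes and 7 proteoglycan cores none, with 1 and 0 at an unadjusted p below 0.05. The 19 respiratory chain genes had a median log2 change of -0.12 with none called and 1 at an unadjusted p below 0.05, and the 13 glycolysis genes -0.027, likewise with none called and 1. Of 9 endoplasmic reticulum chaperones, 7 had a negative log2 change, beside 3671 of all 7468, with a median of -0.27, and none was called or had an unadjusted p below 0.05. Hspa5, the main chaperone of that list, had 11.3 and 12.9 CPM against 9.00 and 4.04 CPM (adjusted p = 0.83). Among 8 immediate-early genes none was called, and between 28.8% and 32.6% of the members of each library held at least 2 UMIs of the activity genes Bdnf, Nr4a3, Pcsk1 and Ptgs2.

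The genotype effect itself was compared between the Ndst4 nuclei and the other excitatory nuclei of the same libraries. Of 13018 genes tested, 47 (0.361%) had a different log2 change in the 2 populations (edgeR, library as a block, adjusted p below 0.1), 19 more positive and 28 more negative in the Ndst4 nuclei, and 18 of them were also called in the Ndst4 nuclei alone. Il1rapl2 differed by -0.996 ± 0.13 on the log2 scale, Thsd7a by -0.84 ± 0.13, Rab3b by -1.79 ± 0.33 and St18 by -2.08 ± 0.30. Ntng1, which was not called in the Ndst4 nuclei (-0.38 ± 0.13, adjusted p = 0.34), differed by -0.72 ± 0.11. Adamtsl1 (1.31 ± 0.19), Cpa6 (1.74 ± 0.31), Arhgap31 (1.84 ± 0.35), Galntl6 (0.57 ± 0.11) and Thsd7b (0.91 ± 0.19) had the lowest p on the positive side. Arhgap31 had 13.4 and 7.58 CPM in control and 14.1 and 51.5 CPM in CrT-KO, so 1 CrT-KO library carried its difference. Against the Ccbe1 nuclei alone 29 genes differed, 18 of them among the 47, and against the Rorb nuclei 23, with 20 among the 47. Of the genes named here, the calls of Cpa6, St18, Thsd7a, Ntng1 and Rab3b ended against the Ccbe1 nuclei (adjusted p from 0.123 to 0.477) and those of Adamtsl1, Arhgap31, Galntl6 and Thsd7b against the Rorb nuclei (adjusted p from 0.123 to 0.741), and Il1rapl2 kept its call against both.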

How the data were processed

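Single-nucleus RNA libraries of the right cortex of 4 mice, 2 control and 2 CrT-KO, were used, 1 per animal. The deposited matrices hold raw UMI counts of 21933 genes per nucleus, which the authors made with Cell Ranger 3.1.0 on a pre-mRNA reference of GRCm38, so intronic reads count. The strand setting of the counting is not given in the sources used here. Each library held 51507483 to 65240843 UMIs, and intervals cover counting error only. The members and the gene lists were chosen with earlier results of these data known.

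UMIs of the members were summed per library and tested with edgeR 4.0.16 (quasi-likelihood, TMM, filterByExpr with a count minimum of 10, Benjamini-Hochberg, threshold 0.1, R 4.3.3). The study tested nuclei with a rank-sum test at the same threshold. Sums over animals were used here, with 2 animals a group. The edgeR p-values and standard errors rest on a spread estimated partly from all tested genes. They do not measure a gene's own spread between animals alone. The population by genotype test had the library as a block. Doublets were scored with Scrublet and kept, except in 1 alternative. Clusters are Leiden clusters (scanpy 1.11.5, 3000 genes, 30 components, resolution 1). Coordinates are from GENCODE M21, matched by ID for 21816 genes. The tests were tested on simulated data. Named genes were those of the creatine list, the 10 called genes of largest change in each direction without overlap between groups, list members of lowest p, the 20 highest levels, and 5 interaction genes in each direction; the other 12 called genes were named after their values were seen. Kcnh5, Bmpr1b, Lypd1, Gm11639 and other cluster genes were picked from those leading each cluster. Alternatives were RLE scaling, DESeq2 1.42.0, other filters and rules, thinning to 5000 UMIs, limma 3.58.1 on mean CPM, a replicate block and leaving out each library. Some results are not reported here.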

Additional observations from a re-analysis of the deposited data

Results flagged for a closer look

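The genotype effect differed between the Ndst4 nuclei and the other excitatory nuclei of the same libraries for 47 genes, by an interaction term in edgeR at an adjusted p below 0.1. The difference of the log2 changes was 1.31 for Adamtsl1, 1.74 for Cpa6, 1.84 for Arhgap31, 0.57 for Galntl6 and 0.91 for Thsd7b. It was -0.996 for Il1rapl2, -2.08 for St18, -0.84 for Thsd7a, -0.72 for Ntng1 and -1.79 for Rab3b. Against single populations, the calls of Cpa6, St18, Thsd7a, Ntng1 and Rab3b ended against the Ccbe1 nuclei (adjusted p from 0.123 to 0.477) and those of Adamtsl1, Arhgap31, Galntl6 and Thsd7b against the Rorb nuclei (adjusted p from 0.123 to 0.741). Cpa6 had 14.4, 15.2, 32.1 and 35.3 CPM in the Ndst4 nuclei and 39.6, 33.7, 25.03 and 23.0 CPM in the other excitatory nuclei (log2 changes of 1.18, adjusted p = 0.11, and -0.56, adjusted p = 0.129, neither of which passed the test). The share of the members in cluster C was lower in both CrT-KO libraries, and the shares alone would give a log2 change of -0.36 for Ntng1, -0.43 for Il1rapl2 and -0.35 for Thsd7a; their part in these differences was not tested.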

How the results depend on the processing

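Of 32 genes called between genotypes, 3 were called by DESeq2, 5 with at least 50 UMIs per library on average, 13 without doublets, 4 with a stricter rule, 2 after thinning to 5000 UMIs, 6 by limma on mean CPM per nucleus, and 16 at a threshold of 0.05. Some of these fits did not test all of the 32. The fit at 50 UMIs tested 3229 genes and the thinned fit 2345, and neither tested St18 or Vxn. With a looser rule 23 were called, 16 of them among the 32, without Il1rapl2, Thsd7a, Rab3b and Trmt9b. Leaving out 1 library gave 26 to 48 calls, and 5 genes (St18, Dock10, Il1rapl2, Adamtsl1 and Ankfn1) kept the call whichever library was left out. A further pair of alternatives was chosen after seeing the data. Without nuclei with oligodendrocyte UMIs 16 genes were called. St18 was too low to test in that fit, and Dock10 lost its call (-0.66, edgeR, adjusted p = 0.555). Over all nuclei of cluster A 11 genes were called, of which 3 were among the 32. In cluster A the log2 change reversed for Slc35f3 (-0.068), St18 (0.42), Dock10 (0.058), Il1rapl2 (0.037) and Thsd7a (0.18), none of which was called there, and for Ckmt1 (-0.66), which also reversed with a looser rule (-0.22) and ranged from -0.37 to 1.49 when 1 library was left out, below 0 without the first control (-0.30) or first CrT-KO library. The cause of these reversals was not tested.

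The difference in share was -0.19 percentage points after thinning and -0.30 for cluster A, and leaving out 1 library moved it from -0.46 to 0.52 points. The genotype effect differed for 29 genes against the Ccbe1 nuclei and for 23 against the Rorb nuclei, 18 and 20 of them among the 47, and Il1rapl2 alone of the 10 named genes kept its call in both. With the replicate number as a block, 99 genes were called, but the numbers pair no samples: deviations of the libraries numbered 1 correlated at 0.067 across 7468 genes. Depth limits low genes such as Slc6a8, which the filter on low counts left out.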
